A study of Mus musculus with 12 samples.

Results

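The 10 genes described here are core pluripotency factors and embryonic stem (ES) cell cofactors: Pou5f1, Sox2, Nanog, Sall4, Foxd3, Utf1, L1td1, Dppa4, Dppa2 and Trim28. They were taken by gene symbol from the 19680 genes of the count table. The choice was made with earlier results of these data known. All 10 were in the table and all 10 passed the filter on low counts, which kept 11635 genes. The cells were mouse ES cells of the line CJ9, which had spent 5 days under direction to endoderm or mesoderm. The 12 libraries form 4 groups of 3: arid4b∆ cells directed to endoderm, wild type (WT) cells directed to endoderm, arid4b∆ cells directed to mesoderm, and WT cells directed to mesoderm. The protein Arid4b belongs to the SIN3-HDAC histone deacetylase complex, and the study asks what Arid4b does when ES cells commit to a lineage. The labels give neither the kind of allele nor the number of clones behind arid4b∆.

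Pou5f1 (also called Oct4) and Sox2 bind DNA side by side at composite elements, and together with Nanog they sustain their own genes and many others in pluripotent cells. During exit from pluripotency the factors are not lost together. Nanog and Pou5f1 stay on in the primitive streak, where endoderm and mesoderm arise, while Sox2 stays on in cells that turn towards the neural side.

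The 10 genes split 3 ways. In arid4b∆ libraries Sox2, Utf1, L1td1, Dppa4 and Dppa2 were higher than in WT libraries in both lineages, and Foxd3 was higher in mesoderm. Nanog and Sall4 were lower in both lineages. Pou5f1 and Trim28 were not called in either.

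The promoters of Nanog, Sox2, Utf1 and Pou5f1 are shown because these 4 genes went 3 ways although all are textbook targets of Oct4 and Sox2. Sequences are from RefSeq (GRCm38.p6), on the plus strand, 5′ to 3′, and end at or before the base ahead of the annotated start. Those of Utf1 and Pou5f1 stop where a longer transcript of the GENCODE annotation begins. They are Nanog at chr6:122707239-122707488, Sox2 at chr3:34649745-34649994, Utf1 at chr7:139943606-139943788 and Pou5f1 at chr17:35505782-35506017. Capitals mark matches, on either strand, to the octamer core ATGCAAA, the Sox core CATTGT, the nuclear receptor half-site AGGTCA and the GC box GGGCGG.
Nanog: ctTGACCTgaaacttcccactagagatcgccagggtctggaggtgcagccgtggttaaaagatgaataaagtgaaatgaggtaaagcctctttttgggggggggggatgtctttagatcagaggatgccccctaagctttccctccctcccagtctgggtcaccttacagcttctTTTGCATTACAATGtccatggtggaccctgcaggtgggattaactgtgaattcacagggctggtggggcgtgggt
Sox2: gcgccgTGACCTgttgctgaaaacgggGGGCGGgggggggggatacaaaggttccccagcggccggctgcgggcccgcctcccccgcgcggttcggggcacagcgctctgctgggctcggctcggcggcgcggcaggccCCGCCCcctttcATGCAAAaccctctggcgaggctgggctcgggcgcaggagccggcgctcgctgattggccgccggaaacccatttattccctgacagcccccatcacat
Utf1: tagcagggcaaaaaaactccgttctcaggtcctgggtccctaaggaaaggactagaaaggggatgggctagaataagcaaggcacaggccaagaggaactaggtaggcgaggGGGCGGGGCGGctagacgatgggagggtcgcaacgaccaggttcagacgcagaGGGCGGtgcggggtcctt
Pou5f1: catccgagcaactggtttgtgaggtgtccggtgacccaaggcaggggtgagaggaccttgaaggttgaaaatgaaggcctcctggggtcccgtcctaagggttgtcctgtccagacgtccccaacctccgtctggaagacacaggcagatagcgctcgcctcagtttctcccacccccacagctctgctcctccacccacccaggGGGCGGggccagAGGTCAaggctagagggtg
A composite element, CATTGT and ATGCAAA with 1 base between them, lay on the minus strand of the Nanog promoter at positions −75 to −62 from its start, with an AGGTCA at −248 to −243. The composite, which contains both cores, occurred in 2 of 32851 promoter windows of 300 bases (0.00609%), and both were the overlapping windows of Nanog's own 2 annotated starts. Only this exact spelling was searched, and only within these windows. Elements spelled otherwise or farther from a start were not looked for, so the search cannot show that the other genes lack one. Whether the motifs bear on the 3 ways was not tested. The Sox2 promoter held an octamer core at −99 to −93 and no Sox core, with 1 AGGTCA and 2 GC boxes. The Utf1 window held 4 GC boxes, some of them overlapping and 1 of them outside the printed stretch, and the printed Pou5f1 promoter held 1 GC box and 1 AGGTCA. The window of another annotated Pou5f1 start, not printed, held a Sox core at −158 to −153 from that start. Over all windows the octamer core was found in 4.63%, the Sox core in 12.6%, AGGTCA in 16.3% and the GC box in 35.7%. The windows of Foxd3 and L1td1 held none of the motifs, and that of Trim28 held 2 GC boxes.

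Total counts per library lay between 10352411 and 35664057. The ribosomal RNA precursor Rn45s took 79.6% to 82.4% of them, which left 1949299 to 6678893 counts. The shallowest library was WT mesoderm library 2. Levels are given as CPM, the count scaled to a common library size, and 3 counts, the limit that a count of 0 allows, equal 0.506 to 1.55 CPM depending on the library. Separate cultures are not stated in the labels, so a p-value here measures spread among libraries that may be technical. The Arid4b gene itself (chr13:14063609-14199603) was counted at 46.3 ± 4.29 CPM in the endoderm libraries labelled arid4b∆ and 41.1 ± 3.98 CPM in those labelled WT (SD, n = 3). In mesoderm it stood at 44.7 ± 2.99 CPM in arid4b∆ and 42.1 ± 4.78 CPM in WT libraries. A count over the whole gene therefore does not check the genotype.

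Markers of the lineages moved with the groups compared here. A marker near 0 in arid4b∆ libraries could pass the filter on low counts only through WT libraries, where it was higher. Tallies of tested markers that were lower in arid4b∆ are therefore set in part by the filter. The 12 listed markers of definitive endoderm summed to 31.2 to 45.2 CPM per arid4b∆ endoderm library, against 299.8 to 545 CPM per WT endoderm library, and all 10 tested were lower in arid4b∆. In mesoderm they summed to 32.4 to 36.1 CPM in arid4b∆ and 30.8 to 38.8 CPM in WT libraries, with 2 of 10 lower and Cer1 at 0 in both genotypes. The 7 tested of 12 markers of nascent mesoderm were all lower in arid4b∆ in both lineages. Their list summed to 19.2 to 25.97 CPM in arid4b∆ and 247 to 275 CPM in WT endoderm libraries, and to 25.0 to 37.7 CPM in arid4b∆ and 241 to 504 CPM in WT mesoderm libraries, with Mesp1 at 0 in arid4b∆ mesoderm. Trophoblast markers stood at 67.4 to 86.9 CPM in arid4b∆ and 155 to 173 CPM in WT endoderm libraries, with 4 of 6 tested lower, and at 83.8 to 116 CPM in arid4b∆ and 234 to 649 CPM in WT mesoderm libraries, with all 6 tested lower. Summed fibroblast and feeder markers ranged from 351 to 811 CPM in arid4b∆ and 259 to 356 CPM in WT endoderm, and from 403 to 874 CPM in arid4b∆ and 555 to 1033 CPM in WT mesoderm, with 4 of 11 tested higher in arid4b∆ endoderm, and 1 higher and 2 lower in arid4b∆ mesoderm. Extraembryonic endoderm markers summed to 363 to 549 CPM in arid4b∆ and 385 to 539 CPM in WT endoderm, and to 391 to 492 CPM in arid4b∆ and 468 to 652 CPM in WT mesoderm. Of 10 tested, 1 was higher and 2 lower in arid4b∆ endoderm, and 1 was higher and 4 lower in arid4b∆ mesoderm. Neural markers, mostly Nes, summed to 112 to 119 CPM in arid4b∆ and 122 to 131 CPM in WT endoderm libraries, and to 74.1 to 87.6 CPM in arid4b∆ and 74.9 to 101 CPM in WT mesoderm libraries. Of 3 tested neural markers 1, Hoxb1, was called, lower in arid4b∆ mesoderm. Hoxb1 had no count in either endoderm group and passed the filter on low counts through mesoderm libraries, where it was higher in WT. Its call was therefore favoured by the filter and is no evidence about the neural markers as a set. Sox1 was at 0 in WT endoderm, and Neurog2 in both WT groups and in arid4b∆ mesoderm. Of all tested genes 12.7% were called in arid4b∆ against WT endoderm and 19.1% in mesoderm. The part of these markers in the results was not tested. In bulk samples, fewer cells of a type and less RNA per cell cannot be told apart.

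**Figure D1:**
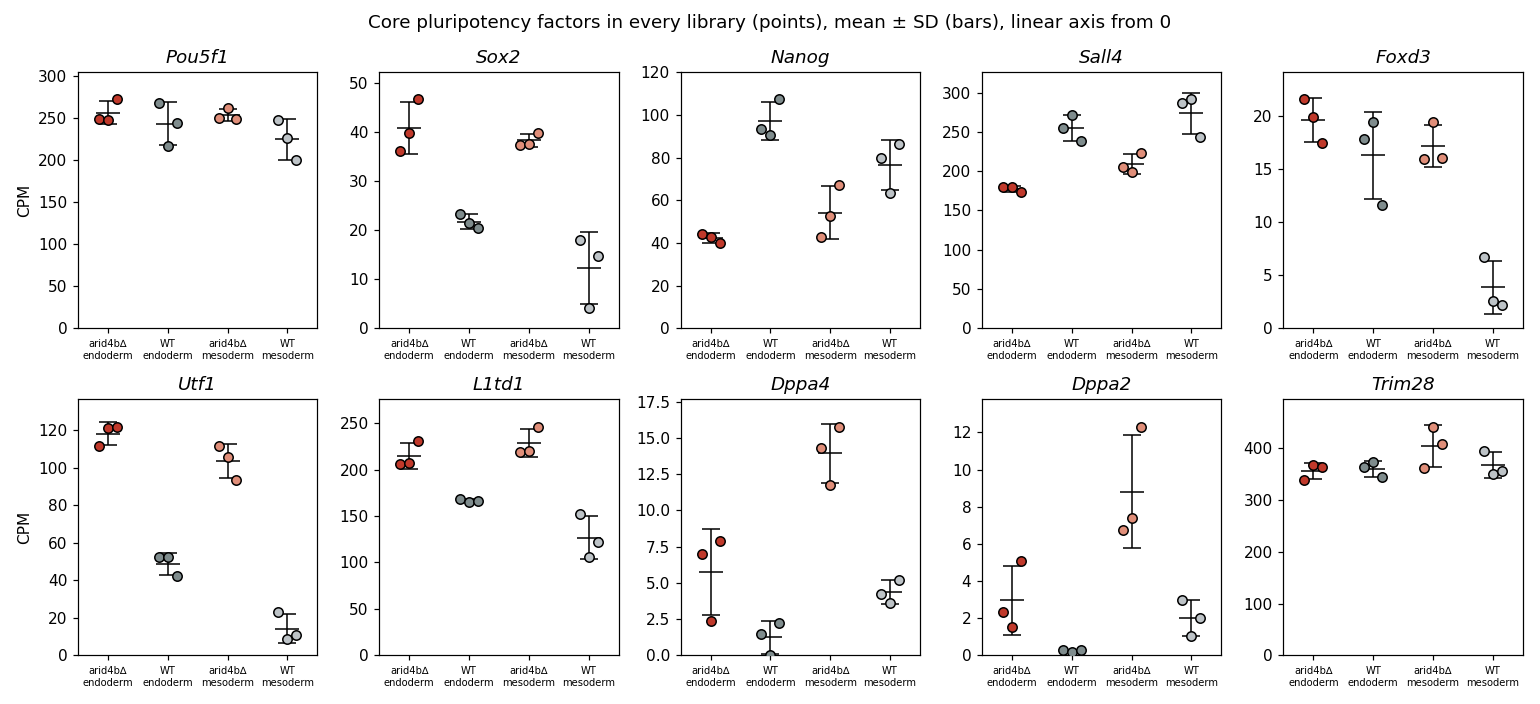
CPM of each of the 10 genes in each of the 12 libraries, on linear axes from 0, with points for libraries and bars for mean ± SD over 3 libraries. For Sox2, Utf1, L1td1, Dppa4 and Dppa2 all arid4b∆ points lie above the WT points of the same lineage, for Sall4 all lie below, and for Trim28 they overlap.

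Per length, Pou5f1 stood highest and Dppa2 lowest. Pou5f1 averaged 188 CPM per kilobase of annotated exon in arid4b∆ endoderm and 178 in WT endoderm, and 186 in arid4b∆ mesoderm and 165 in WT mesoderm. Trim28 followed in every group, at 109.6 to 124 CPM per kilobase over the 4 group means. Below them the order of the group means changed with genotype. In arid4b∆ endoderm the next levels per kilobase were Utf1 (96.3), L1td1 (68.3), Sall4 (35.0), Sox2 (19.9) and Nanog (18.9), against L1td1 (53.0), Sall4 (50.2), Nanog (43.4), Utf1 (39.9) and Sox2 (10.6) in WT endoderm. The 10 genes summed to 1195 to 1277 CPM in arid4b∆ and 1175 to 1243 CPM in WT endoderm libraries. They summed to 1264 to 1371 CPM in arid4b∆ and 1042 to 1215 CPM in WT mesoderm libraries.

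The first comparison sets the libraries labelled arid4b∆ against those labelled WT within each lineage. In arid4b∆ against WT endoderm, 7 of the 10 genes were called at an edgeR adjusted p of 0.05 (5 higher, 2 lower), while 12.7% of all tested genes were called (5.78% higher, 6.92% lower). The same 7 did not overlap between the genotypes, as was the case for 30.2% of all genes. Of these 7, Dppa2 passed the filter on low counts only with the mesoderm libraries included. The median absolute log2 fold change was 0.72 over the 10 genes and 0.21 over all genes. In mesoderm 8 of the 10 were called (6 higher, 2 lower), beside 19.1% of all genes (8.97% higher, 10.1% lower). Dppa2, among those higher, passed the filter only through arid4b∆ mesoderm, its highest group, so that call was favoured by the filter. In that lineage 8 did not overlap, beside 32.8% of all genes, but these were not the same 8. Nanog was called and overlapped, while Pou5f1 was not called and did not overlap. The median absolute log2 fold change in mesoderm was 1.16, beside 0.26 over all genes. Tested against a change of 1.5-fold, 4 genes were called in each lineage. They were Nanog, Utf1, Dppa4 and Dppa2 in endoderm, and Sox2, Utf1, Foxd3 and Dppa2 in mesoderm.

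Pou5f1 (chr17:35506032-35510777), the POU factor without which the inner cell mass is not pluripotent, was counted at 249, 248 and 272 CPM in the 3 arid4b∆ endoderm libraries and at 268, 217 and 244 CPM in the WT endoderm libraries. In mesoderm it stood at 249, 261 and 249 CPM in arid4b∆ and 247, 226 and 199 CPM in WT. The genotypes overlapped in endoderm, while in mesoderm each arid4b∆ library lay just above each WT library. The log2 fold change was 0.08 ± 0.10 (SE) in endoderm (95% interval −0.13 to 0.29, edgeR adjusted p = 0.69) and 0.18 ± 0.10 in mesoderm (−0.03 to 0.39, adjusted p = 0.249). Of its exonic bases, 21.4% overlap the predicted gene Gm19553 on the opposite strand, and whether the counting used strand is not given in the sources used here.

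Sox2 (chr3:34649995-34652461), the HMG-box partner of Oct4, had 36.1, 39.7 and 46.7 CPM in arid4b∆ endoderm libraries, against 23.3, 21.5 and 20.4 CPM in WT endoderm libraries. In mesoderm Sox2 had 37.3, 37.7 and 39.9 CPM in arid4b∆ and 18.0, 4.13 and 14.7 CPM in WT. Every arid4b∆ library lay above every WT library of its lineage, and the WT mesoderm libraries spread widely, with 72, 8 and 87 raw counts. Sox2 was 1.89-fold higher in arid4b∆ endoderm (log2 fold change 0.92 ± 0.19, edgeR adjusted p = 0.00173) and 2.79-fold higher in arid4b∆ mesoderm (1.48 ± 0.21, adjusted p = 2.91e-05). Without WT mesoderm library 2 the mesoderm value was 1.24 (adjusted p = 8.96e-06). In order of level, arid4b∆ endoderm (40.8 ± 5.35 CPM, SD, n = 3) and arid4b∆ mesoderm (38.3 ± 1.40) overlapped, and WT endoderm (21.7 ± 1.49) and WT mesoderm (12.3 ± 7.25) lay below.

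Nanog (chr6:122707489-122714633), a homeobox factor of pluripotent cells and of the early streak, went the other way. It had 44.3, 43.0 and 40.0 CPM in arid4b∆ endoderm libraries, against 93.4, 90.8 and 107 CPM in WT endoderm libraries. In mesoderm it had 42.6, 52.5 and 67.4 CPM in arid4b∆ and 80.1, 63.6 and 86.2 CPM in WT. The endoderm groups were far apart, whereas 1 arid4b∆ mesoderm library reached above the lowest WT one. Nanog fell 2.29-fold in arid4b∆ endoderm (log2 fold change −1.19 ± 0.13, edgeR adjusted p = 1.19e-06) and 1.44-fold in arid4b∆ mesoderm (−0.53 ± 0.14, adjusted p = 0.00843). The mesoderm call ended without arid4b∆ library 1 (adjusted p = 0.066) or WT library 3 (0.0638). From low to high the groups were arid4b∆ endoderm (42.4 ± 2.22 CPM), arid4b∆ mesoderm (54.2 ± 12.5), WT mesoderm (76.6 ± 11.7) and WT endoderm (97.2 ± 8.92), and arid4b∆ mesoderm overlapped both of its neighbours in that order.

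The balance of Nanog and Sox2 within a library does not depend on how libraries were scaled. For every 100 Sox2 counts there were 85.7 to 123 Nanog counts in arid4b∆ endoderm libraries and 400.0 to 526 in WT endoderm libraries. In mesoderm there were 114 to 169 in arid4b∆ and 444 to 1538 in WT libraries, the highest from WT library 2 with its 8 Sox2 counts. The ranges of the genotypes did not overlap in either lineage. Set against Oct4, Sox2 stood at 14.5 to 17.2 counts per 100 Pou5f1 counts in arid4b∆ and 8.36 to 9.93 in WT endoderm libraries. Nanog stood at 14.7 to 17.8 per 100 Pou5f1 counts in arid4b∆ and 34.9 to 44.0 in WT endoderm libraries.

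**Figure D2:**
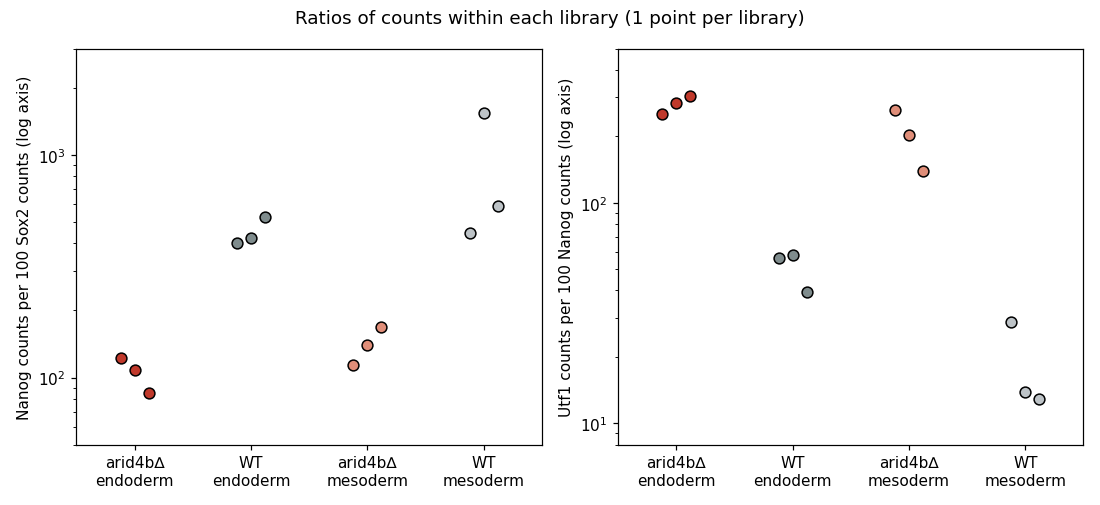
Counts per 100 counts of a partner gene within each library, on log axes, with 1 point per library. Nanog per 100 Sox2 counts spans 85.7 to 169 over all arid4b∆ libraries and 400.0 to 1538 over all WT libraries.

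Sall4 (chr2:168748332-168767201), a zinc finger factor that works with Oct4 and Nanog and binds the NuRD complex, fell with Nanog. It had 180, 180 and 173 CPM in arid4b∆ endoderm libraries, against 255, 272 and 238 CPM in WT endoderm libraries. In mesoderm Sall4 had 205, 198 and 223 CPM in arid4b∆ and 286, 291 and 243 CPM in WT. No arid4b∆ library reached a WT library of the same lineage. Sall4 was 1.44-fold lower in arid4b∆ endoderm (log2 fold change −0.52 ± 0.09, edgeR adjusted p = 0.000588) and 1.30-fold lower in arid4b∆ mesoderm (−0.38 ± 0.10, adjusted p = 0.00636). Gm14261, a predicted gene on the opposite strand, overlaps 290 of its exonic bases.

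Its family did not move as one. Sall3, a close relative, was lower in arid4b∆ with Sall4 (log2 fold change −2.60 ± 0.25 in endoderm and −2.92 ± 0.18 in mesoderm). Sall2, which is used in neural development, was higher (0.77 ± 0.17 and 1.08 ± 0.19 in endoderm and mesoderm). Sall1, another partner of Nanog, was higher in arid4b∆ mesoderm (0.68 ± 0.11) and was not called in endoderm.

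Foxd3 (chr4:99656299-99658671), a forkhead factor needed for ES cell maintenance and used again in neural crest, split the lineages. In endoderm it had 21.6, 19.9 and 17.4 CPM in arid4b∆ libraries and 17.8, 19.4 and 11.6 CPM in WT libraries, which overlapped. In mesoderm it had 15.98, 19.4 and 16.1 CPM in arid4b∆ libraries, against 6.75, 2.58 and 2.19 CPM in WT libraries, which stood far apart. The WT mesoderm values rest on 27, 5 and 13 counts. Foxd3 was 4.44-fold higher in arid4b∆ mesoderm (log2 fold change 2.15 ± 0.29, edgeR adjusted p = 2.03e-05). Over the alternatives the value ranged from 1.68 to 2.88, the latter without WT mesoderm library 1. In endoderm the log2 fold change was 0.24 ± 0.21 (95% interval −0.21 to 0.68, adjusted p = 0.546). By level, arid4b∆ endoderm (19.6 ± 2.07 CPM), arid4b∆ mesoderm (17.2 ± 1.98) and WT endoderm (16.3 ± 4.12) overlapped, and WT mesoderm (3.84 ± 2.53) stood below all of them.

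Utf1 (chr7:139943856-139945112), a chromatin-bound factor of pluripotent cells that is switched off early in differentiation, rose in arid4b∆ cells of both lineages. In endoderm it had 111, 121 and 122 CPM in arid4b∆ libraries, against 52.2, 52.5 and 42.2 CPM in WT libraries. In mesoderm Utf1 had 112, 106 and 93.7 CPM in arid4b∆ libraries, against 23.0, 8.79 and 11.1 CPM in WT libraries. The genotypes were separate in both lineages, and all 6 arid4b∆ libraries lay above all 6 WT libraries. Utf1 was 2.41-fold higher in arid4b∆ endoderm (log2 fold change 1.27 ± 0.15, edgeR adjusted p = 3.07e-06) and 6.98-fold higher in arid4b∆ mesoderm (2.80 ± 0.19, adjusted p = 1.27e-09). Without WT mesoderm library 2 the mesoderm value was 2.66. Set against Nanog, there were 251 to 305 Utf1 counts per 100 Nanog counts in arid4b∆ endoderm libraries and 39.3 to 57.8 in WT endoderm libraries. In mesoderm the ratio was 139 to 262 in arid4b∆ and 12.9 to 28.8 in WT libraries.

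L1td1 (chr4:98726754-98738486), an RNA-binding protein derived from a LINE-1 element and abundant in ES cells, moved less. In endoderm it had 206, 207 and 230 CPM in arid4b∆ libraries and 168, 165 and 166 CPM in WT libraries. In mesoderm it had 219, 220 and 246 CPM in arid4b∆ libraries and 152, 106 and 122 CPM in WT libraries. The genotypes did not overlap in either lineage. It was 1.79-fold higher in arid4b∆ mesoderm (log2 fold change 0.84 ± 0.11, edgeR adjusted p = 1.1e-05) and 1.29-fold higher in arid4b∆ endoderm (0.37 ± 0.11, adjusted p = 0.0243). The endoderm call ended without arid4b∆ library 3 (adjusted p = 0.11) and without WT library 1, 2 or 3 (0.0575, 0.0916 and 0.0746).

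Dppa4 and Dppa2 are neighbours on chromosome 16 (chr16:48283735-48294292 and chr16:48310274-48319513). They encode SAP-domain proteins that form a pair, sit on bivalent promoters and switch on Dux and the genes of the 2-cell embryo in ES cells. Both were the lowest of the 10 in mean CPM, except that Foxd3 (3.84) stood below Dppa4 (4.37) in WT mesoderm. Raw counts are therefore given first. Dppa4 had 24, 14 and 39 counts in arid4b∆ endoderm libraries and 5, 0 and 8 in WT endoderm libraries, and 51, 38 and 59 in arid4b∆ mesoderm libraries and 17, 7 and 31 in WT mesoderm libraries. Dppa2 had 8, 9 and 25 counts in arid4b∆ endoderm and 1 in each WT endoderm library, and 24, 24 and 46 in arid4b∆ mesoderm and 12, 2 and 12 in WT mesoderm.

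On the CPM scale no arid4b∆ library of either gene overlapped the WT libraries of its lineage. For Dppa4 in endoderm the gap was narrow, from 2.38 CPM (14 counts) in arid4b∆ library 2 to 2.27 CPM (8 counts) in WT library 3. Dppa4 averaged 5.76 ± 2.97 CPM in arid4b∆ endoderm and 1.24 ± 1.15 in WT endoderm, and 13.9 ± 2.05 in arid4b∆ mesoderm and 4.37 ± 0.813 in WT mesoderm. Dppa2 averaged 2.98 ± 1.86 CPM in arid4b∆ endoderm and 0.249 ± 0.0669 in WT endoderm, and 8.81 ± 3.04 in arid4b∆ mesoderm and 2.02 ± 0.984 in WT mesoderm. For both genes arid4b∆ mesoderm was the highest group and WT endoderm the lowest.

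Dppa4 was higher in arid4b∆ endoderm (log2 fold change 2.38 ± 0.57, edgeR adjusted p = 0.00694) and in arid4b∆ mesoderm (1.61 ± 0.39, adjusted p = 0.00534). The endoderm call ended without WT library 2, which had no count (1.55, adjusted p = 0.064), the value was 3.26 without WT library 3, and the mesoderm call ended with DESeq2 (adjusted p = 0.073). Dppa2 was 4.03-fold higher in arid4b∆ mesoderm (log2 2.01 ± 0.41, adjusted p = 0.00122). In endoderm its 42 counts in arid4b∆ against 3 in WT gave a ratio of 12.5, with an exact 95% interval of 4.01 to 63.3 that covers counting error only (log2 fold change 3.49 ± 0.71, adjusted p = 0.00173). That value was 2.82 without arid4b∆ library 3. When only the endoderm libraries were fitted, Dppa2 did not pass the filter on low counts and was not tested. Of the stretches of 50 bases in their transcripts, 31.3% for Dppa4 and 29.1% for Dppa2 also occur in other annotated transcripts, so some reads could be shared.

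The genes of the 2-cell embryo stood near the limit of detection. Of 20 such genes in the table, 17 had fewer than 50 counts over all 12 libraries and 1 was tested and not called in either lineage. The Zscan4 genes a, b, c, d and f, picked after their values were seen, are nearly identical and may share reads. Together they had 6, 28 and 14 counts in arid4b∆ endoderm libraries and 0, 3 and 0 in WT endoderm libraries. In mesoderm they had 46, 45 and 30 counts in arid4b∆ libraries and 15, 1 and 29 in WT libraries. They were not tested.

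Trim28 (chr7:13024152-13031032), the corepressor KAP1 that zinc finger proteins recruit to retroelements and imprinted loci, was the member with the smallest change. In endoderm it had 338, 366 and 363 CPM in arid4b∆ libraries and 363, 373 and 343 CPM in WT libraries. In mesoderm Trim28 had 361, 441 and 408 CPM in arid4b∆ libraries and 395, 349 and 356 CPM in WT libraries. The genotypes overlapped in both lineages. The log2 fold change was −0.02 ± 0.10 in endoderm (95% interval −0.21 to 0.18, edgeR adjusted p = 0.948) and 0.14 ± 0.10 in mesoderm (−0.06 to 0.34, adjusted p = 0.365). Among 17 tested partners of Trim28 in silencing, 1 was higher and 1 lower in arid4b∆ endoderm, and 2 were lower in arid4b∆ mesoderm, where 12.7% and 19.1% of all genes were called, so the list did not stand above the background. In endoderm these were Trim24, a relative of Trim28 (log2 fold change 0.39 ± 0.11), and Zfp57, the zinc finger protein of imprinted loci (−1.04 ± 0.29). In mesoderm they were the NuRD subunit Chd3 (−0.68 ± 0.13) and the heterochromatin protein Cbx5 (−0.45 ± 0.10).

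**Figure D3:**
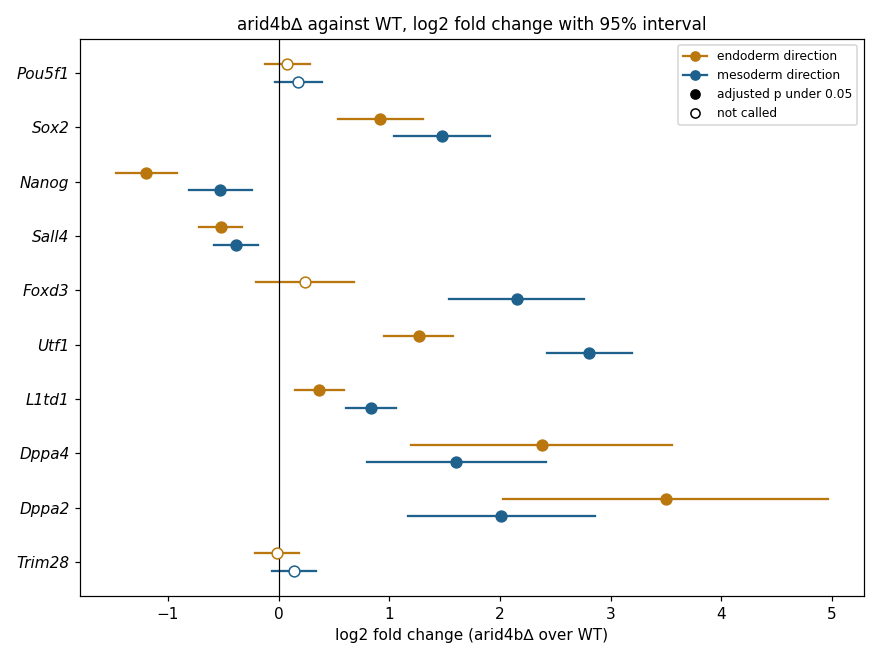
Log2 fold change of arid4b∆ over WT for each gene in endoderm and in mesoderm, with 95% intervals. Intervals of Pou5f1 and Trim28 cross 0 in both lineages, and those of Nanog and Sall4 lie below 0 in both.

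Whether the effect of genotype differed between the lineages was tested by the interaction, endoderm effect minus mesoderm effect. Of the 10 genes 2 were called, Utf1 (log2 difference −1.54 ± 0.24, edgeR adjusted p = 0.00101) and Foxd3 (−1.91 ± 0.37, adjusted p = 0.00699), beside 1.4% of all genes (0.627% with the endoderm effect above the mesoderm effect, 0.774% below). For both, the effect was larger in mesoderm. The Foxd3 call ended without WT mesoderm library 3 (−1.45, adjusted p = 0.0513) and its value was −2.65 without WT mesoderm library 1. For Nanog the difference was −0.67 ± 0.19 (adjusted p = 0.0998), and it passed the threshold without arid4b∆ mesoderm library 1 (adjusted p = 0.0323) and with no filter on low counts (0.00317). L1td1 (−0.47, adjusted p = 0.167) passed it without WT mesoderm library 1 (0.0127). For the other 6 genes adjusted p lay between 0.513 and 0.893.

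Endoderm was then compared with mesoderm within each genotype. These comparisons use the same libraries as those above and are not independent of them. In WT cells 5 of the 10 genes were called (3 higher and 2 lower in endoderm), beside 9.84% of all genes (4.41% higher, 5.43% lower), and 7 did not overlap, beside 24.5% of all genes. In arid4b∆ cells 1 of the 10 was called, lower in endoderm, beside 1.85% of all genes (0.945% higher, 0.902% lower), and 3 did not overlap, beside 18.2%. The gene called, Dppa2, passed the filter on low counts only through arid4b∆ mesoderm, its highest group. Its direction was therefore favoured by the filter, and the count of 1 is no evidence about the 10 genes. The median absolute log2 fold change between the lineages was 0.52 over the 10 genes in WT cells (0.19 over all genes). It was 0.19 in arid4b∆ cells (0.16 over all genes).

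In WT cells Utf1 was 3.32-fold higher in endoderm than in mesoderm (log2 fold change 1.73 ± 0.20, edgeR adjusted p = 1.93e-06). Foxd3 was 4.30-fold higher in endoderm (2.10 ± 0.29, adjusted p = 2.87e-05). Over the alternatives its value ranged from 1.63 to 2.84, the latter without WT mesoderm library 1. L1td1 was slightly higher in endoderm (0.38 ± 0.11, adjusted p = 0.0273). Dppa4 (−2.11 ± 0.60, adjusted p = 0.0262) and Dppa2 (−3.05 ± 0.77, adjusted p = 0.0109) were lower in endoderm. For Sox2 the value was 0.66 ± 0.22 (adjusted p = 0.0632), which passed the threshold with no filter on low counts (0.00114), with DESeq2 (0.0373) and without WT mesoderm library 1 (0.0104). Pou5f1, Nanog, Sall4 and Trim28 were not called, at adjusted p of 0.145 to 0.915, though Nanog passed with no filter (0.0381).

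Several of these calls rested on single libraries. The L1td1 call ended without WT endoderm library 1, 2 or 3 (adjusted p = 0.0702, 0.0784 and 0.0798), without WT mesoderm library 2 or 3 (0.14 and 0.117) and when the 6 WT libraries were fitted alone (0.0554). The Dppa4 call ended without WT endoderm library 2 (−1.28, adjusted p = 0.183) or WT mesoderm library 3 (0.135) and with DESeq2 (0.103), and its value was −3.00 without WT endoderm library 3. The Dppa2 call ended without WT endoderm library 2 (0.083) and with limma-voom (0.0524). With only the WT libraries fitted, Dppa2 did not pass the filter on low counts and was not tested.

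In arid4b∆ cells the gene called was Dppa2, at 2.33, 1.53 and 5.07 CPM in endoderm libraries and 6.73, 7.41 and 12.3 CPM in mesoderm libraries (log2 fold change −1.57 ± 0.37, edgeR adjusted p = 0.027). The call ended without endoderm library 1 (adjusted p = 0.0641) or 2 (0.203), without mesoderm library 2 (0.0612) or 3 (0.263) and with DESeq2 (0.0679). Its value was −2.25 without endoderm library 3. Its neighbour Dppa4 stood at −1.33 ± 0.36 (adjusted p = 0.0639) and passed the threshold in 7 alternatives, 3 of them without a WT library (WT endoderm library 2 and WT mesoderm libraries 1 and 3, 0.0228 to 0.0487). The others had adjusted p of 0.252 to 0.974.

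**Figure D4:**
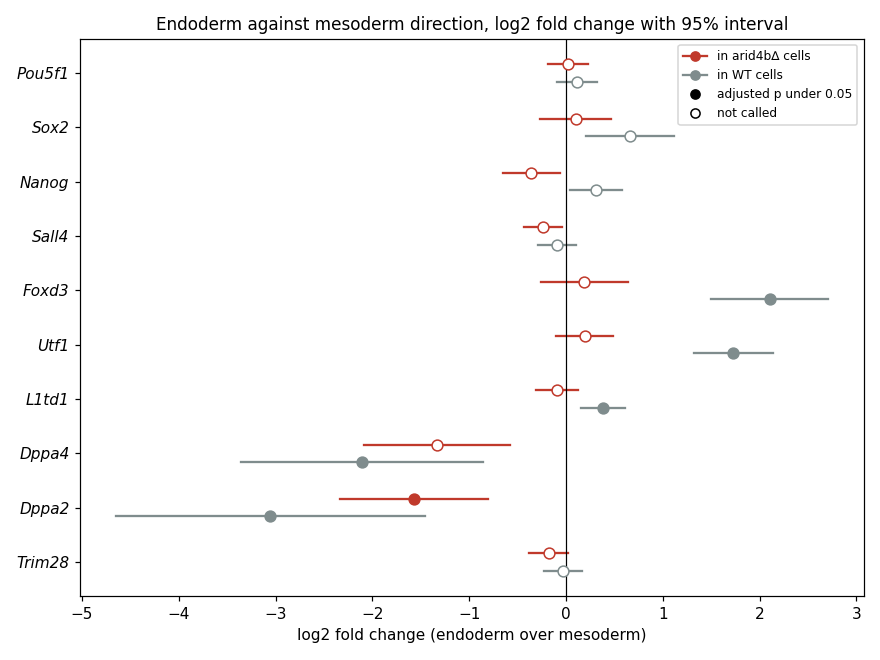
Log2 fold change of endoderm over mesoderm for each gene in arid4b∆ and in WT cells, with 95% intervals. Utf1 and Foxd3 lie at 1.73 and 2.10 in WT cells, and intervals of both cross 0 in arid4b∆ cells.

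Genes tied to the same network were drawn up as lists. Of all tested genes, for comparison with every list, 5.78% were higher and 6.92% lower in arid4b∆ endoderm. In arid4b∆ mesoderm 8.97% were higher and 10.1% lower. Of 12 genes known for a composite Oct4-Sox2 element, which include Pou5f1, Sox2, Nanog, Utf1 and Dppa4 themselves, 6 were higher and 2 lower in arid4b∆ endoderm. In mesoderm 8 were higher and 1 lower. Sox2, Utf1 and Dppa4 were among those higher in both lineages, and Nanog among those lower. The counts therefore repeat in part the calls of the members. The median log2 fold change, to which the members contribute, was 1.08 in endoderm and 1.06 in mesoderm, against −0.00 and 0.01 over all genes. Fgf4, an FGF ligand of the inner cell mass, was higher in both (2.34 ± 0.24 and 1.79 ± 0.23). Lefty1, a Nodal inhibitor, was lower in arid4b∆ endoderm (−1.48 ± 0.14) and higher in arid4b∆ mesoderm (2.98 ± 0.33). Its CPM averaged 28.7 in arid4b∆ and 78.2 in WT endoderm, and 10.9 in arid4b∆ and 1.5 in WT mesoderm.

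Among 13 tested genes of the naive state, 4 were higher and 1 lower in arid4b∆ endoderm, and 3 were higher and 2 lower in arid4b∆ mesoderm, with medians of 0.69 and 0.32. Those called include Zfp42 (Rex1), a classical naive marker (1.96 ± 0.57 in endoderm, at 2.89 CPM in arid4b∆ and 0.667 in WT), and Tdgf1, the Nodal co-receptor Cripto (−2.32 ± 0.18 in endoderm). In mesoderm Klf5 (−1.48 ± 0.22) and Tbx3 (−2.83 ± 0.37), both also made by extraembryonic cells, were lower. More genes of this list were called between the lineages. In endoderm against mesoderm 0 were higher and 8 lower in arid4b∆ cells, and 1 was higher and 9 were lower in WT cells. Dppa2 and Dppa4 were also lower in endoderm in WT cells. Part of this direction was set by the filter on low counts. Esrrb (15 counts in arid4b∆ and 4 in WT endoderm) and Klf2 (11 and 6) passed it only through mesoderm libraries, where they were higher. The tally is therefore no evidence of a direction of the list. Of all tested genes 1.85% were called between the lineages in arid4b∆ cells and 9.84% in WT cells.

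Formative and primed genes, which include Foxd3, went both ways. Of 19 tested, 3 were higher and 2 lower in arid4b∆ endoderm, and 11 were higher and 4 lower in arid4b∆ mesoderm, with medians of −0.04 and 0.68. Pou3f1 (Oct6), a POU factor of the epiblast and neural progenitors, was higher in both (1.92 ± 0.20 and 2.00 ± 0.23). Otx2, a homeobox factor of the epiblast and forebrain, was higher in mesoderm (1.95 ± 0.19), at 68.4 CPM in arid4b∆ and 17.5 in WT libraries. The interaction was called for 7 of the 19, with Otx2 (−2.20 ± 0.23) and Fgf5 (−2.51 ± 0.33) beside Foxd3. Of all tested genes 1.4% were called in the interaction.

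Over all tested genes 12.7% were called in arid4b∆ endoderm and 19.1% in arid4b∆ mesoderm. The share of partner proteins of Oct4 and Nanog called in endoderm was near the former. They were higher in arid4b∆ for 5 of 33 and lower for 0 in endoderm. In mesoderm 11 were higher and 1 lower, and the medians were 0.13 in endoderm and 0.19 in mesoderm. Zfhx3 (0.62 ± 0.10 and 0.97 ± 0.10), the repressor Rest (0.38 ± 0.10 in endoderm) and Tcf7l1 (1.06 ± 0.14 in mesoderm), the Wnt-controlled repressor of pluripotency genes, are examples. None of 5 tested lineage genes that Oct4 represses was called in arid4b∆ endoderm. In mesoderm Cdx2, a factor of trophoblast and posterior mesoderm, was lower, at 0.089 CPM in arid4b∆ and 15.3 CPM in WT libraries. Relatives of Sox2 rose in part, with 2 of 5 tested SoxB and SoxC genes higher in arid4b∆ endoderm and 3 higher and 1 lower in mesoderm, Sox2 included. Sox3, its closest relative, was higher in both (0.92 ± 0.17 and 0.69 ± 0.21). Of 4 tested POU genes, Pou5f1 included, 2 were higher and 1 lower in endoderm and 1 was higher and 1 lower in mesoderm.

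For the 3 core factors, the genes with the most similar log2 CPM over the 12 libraries were looked up among 8864 genes. Nanog was most like Slc41a1 (Pearson r = 0.956), Rreb1 (0.941) and Prox1 (0.935). Rreb1, a zinc finger factor of the RAS pathway, averaged 35.9 CPM in arid4b∆ and 89.8 CPM in WT endoderm. Sox2 was most like Sned1 (0.956), Hspa4l (0.955) and Gdf1 (0.953). For Pou5f1 they were Coprs (0.906), Psmd4 (0.904) and Hnrnpc (0.903). These values describe 12 libraries that share 4 groups, and the highest of many were taken.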

How the data were processed

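Total RNA was taken from mouse ES cells of the line CJ9, ribosomal RNA was depleted, and directional libraries were sequenced on an Illumina HiSeq instrument, per the labels' protocols. The authors deposited raw read counts for each gene, with 1 column per library. STAR, DESeq2 and mm10 are named in the submitters' processing notes. Roles, versions, counting program, annotation and strand setting: not given in the sources used here. Groups and replicate numbers are from the sample titles. No 2 libraries held identical counts.

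The 10 members and all gene lists were chosen with earlier results of these data known. Rn45s entered neither library sizes nor tests, and neither did 26 genes whose cell for WT endoderm library 1 contains a date. Of 19680 genes, 347 lacked a symbol in the table. The analysis used edgeR 4.0.16 in R 4.3.3. After trimmed mean of M values (TMM) scaling, filterByExpr kept 11635 genes at a minimum count of 10, and all 12 libraries entered 1 fit of 4 group means without covariates. Contrasts were tested by the quasi-likelihood F test and adjusted by Benjamini-Hochberg over the 11635 genes, with calls at 0.05. The biological coefficient of variation was 9.71%. A standard error is |log2 fold change| over the root of F, and 95% intervals rest on it. CPM use the scaled library sizes of the tested genes. The microRNA gene Mir6236 and Lars2, which take up ribosomal RNA reads, held 49.7% to 69.5% of the counts left without Rn45s and were kept, so the counts behind the other genes are fewer than the totals. Reads carried no molecular identifiers, so floors of 3 counts and exact 95% binomial intervals of count ratios cover counting error only.

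Beside the members, the text names up to 4 called genes of a list by smallest adjusted p, and, for the 3 core factors, the 3 genes of at least 5 CPM on average with the highest Pearson r of log2 CPM (prior count 2). Genes named from a list in both lineages may have been picked by the rule in 1 of them. Gene positions, and promoters of 250 bases before to 50 after a start, are from RefSeq (GRCm38.p6). Promoters matched 7 of the 10 members, and Sall4, Dppa4 and Dppa2 are named only. Exonic lengths and shared stretches are from the GENCODE M21 basic annotation. Scripts were tested on simulated data. Alternatives were DESeq2 1.42.0, limma 3.58.1 (voom), other scalings and filters, a test against 1.5-fold, a replicate block and leaving out each library.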

Additional observations from a re-analysis of the deposited data

Results flagged for a closer look

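For 2 of the 10 genes the effect of arid4b∆ differed between the lineages in the test of the difference itself. The effect on Utf1 in endoderm minus that in mesoderm was −1.54 on the log2 scale. The same difference for Foxd3 was −1.91. Both genes were low in WT mesoderm libraries, with 92, 17 and 66 counts of Utf1 and 27, 5 and 13 counts of Foxd3.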

How the results depend on the processing

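Over 21 alternatives, none of the 1038 values of the 10 genes changed sign in a called result, 987 kept their side of the threshold, 35 lost it and 16 gained it. With each library left out in turn, edgeR called 5 to 7 of the 10 genes in arid4b∆ against WT endoderm and 7 to 8 in mesoderm, 1 to 3 in the interaction (1 without WT mesoderm library 3), 0 to 2 between lineages in arid4b∆ cells and 2 to 6 between lineages in WT cells. Against a change of 1.5-fold, 4, 4, 2, 0 and 3 were called in the same order (2 of the 10 at an unadjusted p of 0.05 in arid4b∆ cells). Between lineages in arid4b∆ cells the call of 1 gene became 0 with DESeq2 (5 at an unadjusted p of 0.05), 2 with limma-voom, 2 without a filter and 2 with the 6 libraries alone. In WT cells the 6 libraries alone gave 3, in a fit where Dppa2 did not pass the filter. The cause was not tested. Replicate numbers were not shown to pair the libraries: 5 of 18 same-number pairs correlated above 0.1 (−0.0559 to 0.193), and not every library correlated best with its own number. With a replicate block the counts were 7, 8, 3, 2 and 6. The genes gained were Nanog in the interaction (adjusted p = 0.0236), Dppa4 in arid4b∆ cells (0.00394) and Sox2 in WT cells (0.0213). Over all genes, 1.5-fold left 372, 502, 55, 26 and 404 calls, no filter gave 377 in the interaction and 483 between lineages in arid4b∆ cells, and the block gave 255 and 377 there. Leaving out libraries gave 835 to 1704, 1480 to 2461, 104 to 354, 59 to 317 and 740 to 1391 calls. Depth limits Dppa2 and Dppa4 most, where WT endoderm held 3 and 13 counts in all.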
